A study of Mus musculus with 6 samples.

Results

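The calmodulin-dependent protein kinases (CaM kinases) of the mouse were followed here in the dental pulp of control molars and of molars with *Ror2* deleted in the dental mesenchyme. They were chosen by name, with earlier results of these data known. They are the 10 genes *Camkk1*, *Camkk2*, *Camk1*, *Camk1d*, *Camk1g*, *Camk4*, *Camk2a*, *Camk2b*, *Camk2d* and *Camk2g* out of 27506 genes in the count table. All 10 passed the filter on low counts, which kept 19330 genes. RNA-seq was carried out on dental pulp of the mandibular first molar taken at postnatal day 3.5 from C57BL/6 mice. The control group was 3 libraries from *Ror2*fl/fl mice, which carry floxed *Ror2* alleles, and the mutant group was 3 libraries from *Osr2-Cre;Ror2*fl/fl mice, in which the same alleles are combined with the *Osr2-Cre* transgene. *Osr2-Cre* acts in the dental mesenchyme and alveolar bone and not in the dental epithelium. The controls are not labelled as carrying Cre, so the presence of Cre and the loss of *Ror2* cannot be told apart. The sample titles carry the indices 5, 6 and 7 in both groups. Whether the groups were prepared and sequenced together is not given in the sources used here. If they were not, a difference in processing could not be told apart from the genotype. The sources used here do not say whether a library came from 1 animal or from several, so the p-values measure the spread between these libraries, which may in part be technical.

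CaM kinases are serine/threonine kinases that become active when calcium-loaded calmodulin binds to them. The kinase kinases CaMKK1 and CaMKK2 phosphorylate and activate CaMKI and CaMKIV, while CaMKII forms large holoenzymes that phosphorylate themselves and can thereby outlast the calcium signal. Ror2 is a receptor for Wnt5a, and CaMKII, together with protein kinase C, is a classic effector of the Wnt/calcium branch of non-canonical Wnt signaling. The comparison of mutant with control libraries therefore asks whether the transcripts of these kinases, and of the genes around them, differ when *Ror2* is deleted in the dental mesenchyme.

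The libraries held between 56134770 and 62628940 estimated counts. Levels are given as CPM, counts relative to the size of the library after scaling by the trimmed mean of M-values (TMM). *Ror2* itself stood at 38.2, 36.2 and 36.7 CPM in the controls and at 27.9, 28.1 and 26.3 CPM in the mutants, a log2 fold change of -0.43 ± 0.08 (SE, n = 3 and 3; edgeR's quasi-likelihood test, adjusted p = 0.0134 after Benjamini-Hochberg correction). This call ended without control library 2 (adjusted p = 0.0664 in edgeR) or control library 3 (adjusted p = 0.0752). RNA of the enamel organ was present in all libraries labelled dental pulp, since *Amelx*, which encodes amelogenin, was the gene with the most counts in each and took 9.15% to 9.97% of the counts in the controls and 12.6% to 15.2% in the mutants. The 14 epithelial markers summed to between 173700 and 193900 CPM in the controls and between 186600 and 257200 CPM in the mutants, and 0 of the 14 were called. The 18 markers of dental mesenchyme and odontoblasts summed to between 20830 and 60880 CPM in the controls and between 17980 and 47670 CPM in the mutants. *Col1a1* and *Col1a2* made up most of each sum, which says little about the other markers. Of 17 tested, 1 was higher and 1 lower (11.8% called), and 12 had a negative log2 fold change. Of 16 skeletal muscle markers tested, 10 were lower in the mutants (62.5% called, against 20.2% of all genes). The muscle markers in the table summed to 27.7 to 61.1 CPM in the controls and 15.6 to 17.2 CPM in the mutants. Of 9 neuronal markers tested, 2 were higher and 2 lower (44.4% called), with sums of 110 to 147 CPM and 115 to 154 CPM. Of 10 Schwann cell markers, 2 were higher and 1 lower (30.0% called). Their sums were 130 to 137 CPM in the controls and 100.3 to 111 CPM in the mutants. The part of these lists in the levels of the CaM kinase genes was not tested. No marker of these lists that is in the table was at 0 in all libraries, and *Myh1*, *Myh2*, *Myod1* and *Myog* of muscle and *Nefl*, *Nefm*, *Nefh*, *Prph* and *Syt1* of neurons lay below 1 CPM. In such bulk libraries, fewer cells of a type and less RNA per cell cannot be told apart.

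In the main fit *Camkk1* and *Camkk2* passed the threshold, and none of the CaMKI, CaMKIV or CaMKII genes did. The classes were not tested against each other. *Camk2d* (log2 fold change -0.32, adjusted p = 0.0791 in edgeR) lay close to *Camkk2* (-0.38, adjusted p = 0.0482). Of 19 alternative analyses, *Camkk1* missed the threshold in 10 and *Camkk2* in 12. An adjusted p under 0.05 was reached by 2 of the 10 genes, both lower in the mutants, while 20.2% of all genes tested were called, 10.4% higher and 9.84% lower. The number of CaM kinase genes called was thus near the share over the whole table. The values of control and mutant libraries did not overlap for 5 of the 10 genes (50.0%), 3 lower and 2 higher, compared with 44.7% of all genes, 22.1% lower and 22.6% higher. The median log2 fold change of the 10 genes was -0.17, with 6 negative and 4 positive, and that of all genes tested was 0.01. With 3 libraries against 3, an exact permutation test of a single gene cannot go below p = 0.1.

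**Figure D1:**
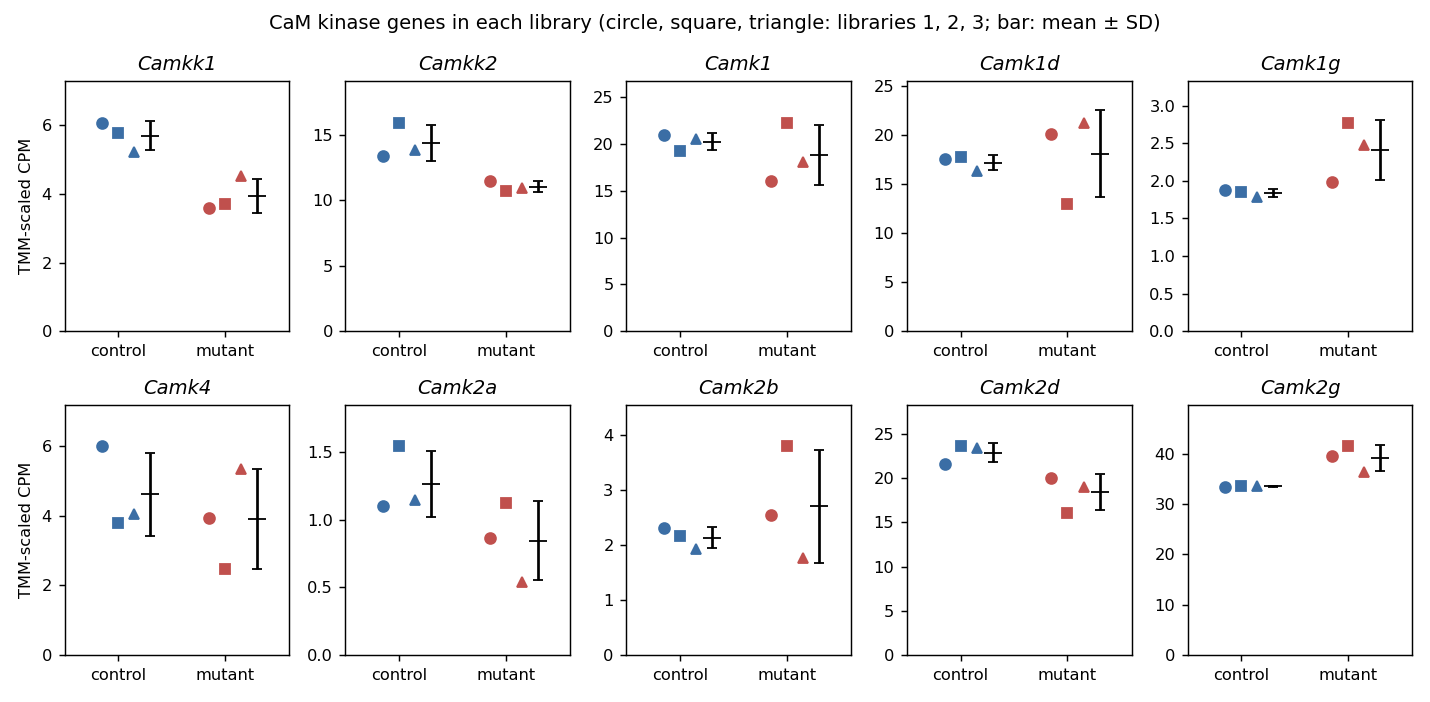
TMM-scaled CPM of each CaM kinase gene (vertical axes from 0, a scale of its own for each gene) in the 3 control (blue) and 3 mutant (red) libraries, with circles, squares and triangles for libraries 1, 2 and 3 and black bars for the mean ± SD. The mutant libraries lay below all controls for *Camkk1*, *Camkk2* and *Camk2d* and above all controls for *Camk1g* and *Camk2g*, and the groups overlapped for the other 5 genes.

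*Camkk1* (ENSMUSG00000020785.17, chr11:73019008-73042073, plus strand, mm10) encodes CaMKKα, an activator of CaMKI and CaMKIV. Its level was 6.07, 5.76 and 5.23 CPM in control libraries 1, 2 and 3 and 3.59, 3.71 and 4.51 CPM in the mutants. Every mutant library lay below every control, with the highest mutant value in library 3 closest to the controls. The means were 5.69 ± 0.425 CPM (SD, n = 3) and 3.93 ± 0.501 CPM (SD, n = 3), and the log2 fold change was -0.53 ± 0.15 (SE, 95% interval -0.88 to -0.18, adjusted p = 0.0445 in edgeR's quasi-likelihood test). These values rested on 212 to 391 estimated counts per library.

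*Camkk2* (ENSMUSG00000029471.13, chr5:122731170-122779409, minus strand) encodes CaMKKβ, which besides CaMKI and CaMKIV also activates AMP-activated protein kinase (AMPK). It stood at 13.4, 15.9 and 13.9 CPM in the controls and at 11.5, 10.7 and 10.96 CPM in the mutants. The groups did not overlap, and the mutant libraries lay closer together than the controls, of which library 2 was the highest. Its log2 fold change was -0.38 ± 0.11 (SE, n = 3 and 3, 95% interval -0.64 to -0.12, adjusted p = 0.0482 in edgeR), with 617 to 929 counts per library. Both adjusted p-values sat just under the threshold. When any single library was left out, *Camkk2* was no longer called (adjusted p between 0.0599 and 0.2 in edgeR), and *Camkk1* was called only without mutant library 3 (adjusted p = 0.0222) and otherwise reached adjusted p-values between 0.0761 and 0.154. The direction was lower in the mutants for both genes in each of the 19 alternative analyses, 13 with another setting and 6 with a library left out.

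The sequences upstream of both called genes are shown because the kinase kinases were the only members called in this fit, both in the same direction. They are the 250 bases before the RefSeq transcript start on GRCm38.p6, written 5′ to 3′ on the strand of the gene, with capitals marking the letters of a cyclic AMP response element (CRE) half-site, TGACG, and of a GC box, GGGCGG, on either strand. The *Camkk1* window lies at chr11:73018738-73018987 on the plus strand and the *Camkk2* window at chr5:122779411-122779660 on the minus strand.
Camkk1: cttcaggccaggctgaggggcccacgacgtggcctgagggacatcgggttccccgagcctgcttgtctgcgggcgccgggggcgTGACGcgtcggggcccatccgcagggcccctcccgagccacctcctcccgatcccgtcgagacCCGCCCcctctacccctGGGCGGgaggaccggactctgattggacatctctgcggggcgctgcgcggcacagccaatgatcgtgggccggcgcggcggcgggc
Camkk2: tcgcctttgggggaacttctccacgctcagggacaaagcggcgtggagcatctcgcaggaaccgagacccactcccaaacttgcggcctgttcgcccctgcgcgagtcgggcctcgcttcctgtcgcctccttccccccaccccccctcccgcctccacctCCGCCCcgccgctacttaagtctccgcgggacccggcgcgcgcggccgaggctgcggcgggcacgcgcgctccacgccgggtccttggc
The *Camkk1* window was 74.4% G and C and the *Camkk2* window 72.4%, compared with a median of 52.4% over 32851 promoters of the same length. *Camkk1* held 1 CRE half-site, 166 to 162 bases before the start, and 2 GC boxes, at 103 to 98 and at 86 to 81 bases. It also held 2 CCAAT boxes (CCAAT), which are not in capitals. *Camkk2* held 1 GC box, at 89 to 84 bases, and none of the other motifs searched. Over all promoters, 17.8% held a half-site (TGACG, which is also part of the full CRE, TGACGTCA, found in 1.55%), 32.7% a GC box and 33.8% a CCAAT box. Neither window held the full CRE, a TATA box (TATAAA, in 12.4% of promoters), an E box (CACGTG, in 6.02%) or a TCF site (CTTTGA, in 13.8%). These matches are of letters in the window only.

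The CaMKI genes, encoding monomeric kinases activated by the kinase kinases, did not differ past the threshold. *Camk1* (chr6:113334124-113343984, minus strand) was at 20.96, 19.2 and 20.6 CPM in the controls and at 16.0, 22.3 and 18.1 CPM in the mutants. The groups overlapped, since mutant library 2 was the highest of all 6 and mutant library 1 the lowest. On the log2 scale the change was -0.11 (SE 0.13, 95% interval -0.42 to 0.20, adjusted p = 0.58 in edgeR). Of its exon bases, 3.88% also belong to exons of *Ogg1* on the opposite strand, and the sources used here do not give whether the counting used strand.

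*Camk1d* (chr2:5293457-5714515, minus strand), which encodes CaMKIδ, was at 17.5, 17.7 and 16.3 CPM in the controls and at 20.1, 13.0 and 21.3 CPM in the mutants. The mutant libraries fell on both sides of the controls, and library 2 was the low one. Its log2 fold change was 0.08 (SE 0.18, 95% interval -0.33 to 0.49, adjusted p = 0.78 in edgeR), and it became -0.06 without mutant library 3. *Camk1g* (chr1:193346346-193370298, minus strand), which encodes CaMKIγ, was the CaMKI gene with the fewest counts, 108 to 160 per library. It stood at 1.88, 1.85 and 1.78 CPM in the controls and at 1.98, 2.77 and 2.47 CPM in the mutants. All mutant values lay above all control values, although mutant library 1 was only slightly higher. On the log2 scale the change was 0.39 (SE 0.20, 95% interval -0.06 to 0.84, adjusted p = 0.18 in edgeR).

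*Camk4* (chr18:32934931-33191228, plus strand) encodes CaMKIV, a mainly nuclear kinase best known from neurons and T cells that phosphorylates CREB. It was at 5.99, 3.79 and 4.06 CPM in the controls and at 3.94, 2.46 and 5.34 CPM in the mutants. Control library 1 and mutant library 3 were the highest, so that the groups overlapped widely. The log2 fold change was -0.24 (SE 0.30, 95% interval -0.92 to 0.44, adjusted p = 0.58 in edgeR) and it was 0.01 without mutant library 2. A small part of its exons, 2.21% of the bases, overlaps an exon of *2310026I22Rik* on the opposite strand.

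Among the CaMKII genes, which encode the subunits of the holoenzyme, the broadly expressed *Camk2d* and *Camk2g* shifted in opposite directions without passing the threshold. *Camk2d* (ENSMUSG00000053819.16, chr3:126596302-126846326, plus strand) encodes CaMKIIδ. It was at 21.6, 23.6 and 23.4 CPM in the controls and at 20.01, 16.1 and 19.0 CPM in the mutants. All mutants lay below all controls, and mutant library 2 was the lowest. For *Camk2d*, the log2 fold change was -0.32 ± 0.11 (SE, n = 3 and 3, 95% interval -0.57 to -0.06, unadjusted p = 0.023 and adjusted p = 0.0791 in edgeR). The exons of *Camk2d* hold 39.7% G and C, the lowest share of the 10 genes. With an offset for GC content the log2 fold change was 0.03 (adjusted p = 0.829 in edgeR), and with offsets for GC content and length it was 0.22 (adjusted p = 0.181). With limma voom, *Camk2d* passed the threshold at -0.29 (adjusted p = 0.0412). Across the 19330 genes, the log2 fold change and the GC content of the exons had a Spearman's rho of 0.346, given as a description because the genes come from the same 6 libraries.

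*Camk2g* (ENSMUSG00000021820.18, chr14:20734875-20794088, minus strand) encodes CaMKIIγ. The controls were nearly identical, at 33.4, 33.5 and 33.5 CPM, and the mutants were at 39.5, 41.4 and 36.3 CPM. All mutants were higher than all controls, and their SD of 2.56 CPM compared with 0.0541 CPM in the controls. For *Camk2g*, the log2 fold change was 0.22 ± 0.09 (SE, n = 3 and 3, 95% interval 0.02 to 0.43, unadjusted p = 0.034 and adjusted p = 0.101 in edgeR), on 1952 to 2390 counts per library. Within each library, the CPM of *Camk2g* divided by that of *Camk2d* was 1.55, 1.42 and 1.43 in the controls and 1.98, 2.57 and 1.91 in the mutants. The ratio was therefore higher in every mutant than in any control, and highest in mutant library 2. It was not tested, and it rests on CPM without the GC offsets that brought the log2 fold change of *Camk2d* to 0.03 and 0.22 and that of *Camk2g* to 0.15 and 0.18.

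The subunits known best from neurons were low. *Camk2a* (chr18:60925618-60988152, plus strand), which encodes CaMKIIα, had 32 to 90 counts per library and was at 1.10, 1.54 and 1.15 CPM in the controls and at 0.863, 1.13 and 0.542 CPM in the mutants. Only mutant library 2 reached into the range of the controls. The log2 fold change was -0.58 (SE 0.32, 95% interval -1.31 to 0.14, adjusted p = 0.208 in edgeR), the most negative of the 10 genes but with the widest interval. *Camk2b* (chr11:5969644-6066362, minus strand), which encodes CaMKIIβ, was at 2.31, 2.16 and 1.93 CPM in the controls and at 2.55, 3.80 and 1.76 CPM in the mutants. The mutants spanned the controls, with library 2 the highest of all and library 3 the lowest. The log2 fold change was 0.34 (SE 0.28, 95% interval -0.30 to 0.98, adjusted p = 0.399 in edgeR), and 0.03 without mutant library 2. Both intervals span negative and positive values, so these libraries did not settle the direction for either gene. They do not show that either gene was unchanged.

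**Figure D2:**
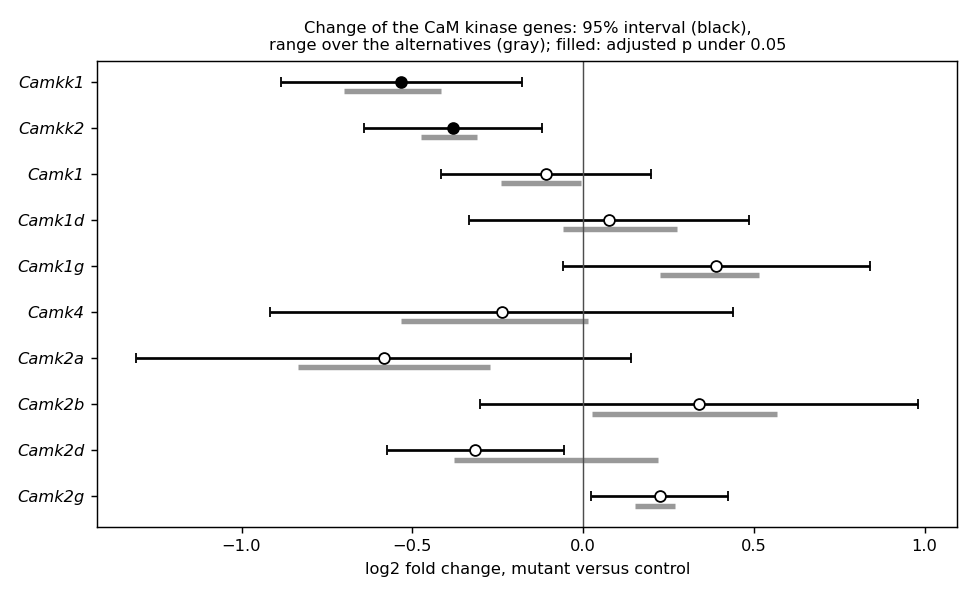
Log2 fold change of each CaM kinase gene, mutant versus control (horizontal axis; 0 is no difference), with the 95% interval in black and the range over all alternative analyses in gray. Filled points, *Camkk1* at -0.53 and *Camkk2* at -0.38, have an adjusted p under 0.05, and the gray range crosses 0 for *Camk1d*, *Camk4* and *Camk2d*.

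The order of the genes was compared per length, as CPM per kilobase of merged exons. In the controls *Camk2g* was the highest, at 5.23 ± 0.00845 CPM per kilobase (SD, n = 3), followed by *Camk1* at 3.39 ± 0.152 and *Camk1d* at 2.31 ± 0.105 CPM per kilobase. *Camkk1* (1.53 ± 0.114), *Camk4* (1.42 ± 0.368) and *Camkk2* (1.32 ± 0.124 CPM per kilobase) came next, and these neighbors overlapped in the control libraries and did not differ beyond their spread. *Camk2d* stood at 1.02 ± 0.0479 and *Camk1g* at 0.666 ± 0.0183 CPM per kilobase. *Camk2b* (0.234 ± 0.0213) and *Camk2a* (0.170 ± 0.0325 CPM per kilobase) were the lowest and only just apart. In the mutants the most and the least abundant genes were the same, with *Camk2g* at 6.11 ± 0.400 and *Camk2a* at 0.113 ± 0.0392 CPM per kilobase. *Camk1* and *Camk1d* overlapped there, and so did *Camk1g* (0.873 ± 0.145) and *Camk2d* (0.817 ± 0.0904 CPM per kilobase), which had been apart in the controls.

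The merged exons of *Camk2d* span 22.5 kb, whereas its longest transcript spans 5.52 kb, and the place of some genes depends on which is used. Per kilobase of the longest transcript, *Camk2d* moved up in the control order, to 4.14 CPM per kilobase, behind *Camk2g* at 9.04 and *Camk1* at 8.45 CPM per kilobase. *Camkk2* then lay above *Camkk1*, at 2.96 and 1.53 CPM per kilobase. *Camk2g* stayed the most abundant and *Camk2a* the least abundant under either length.

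**Figure D3:**
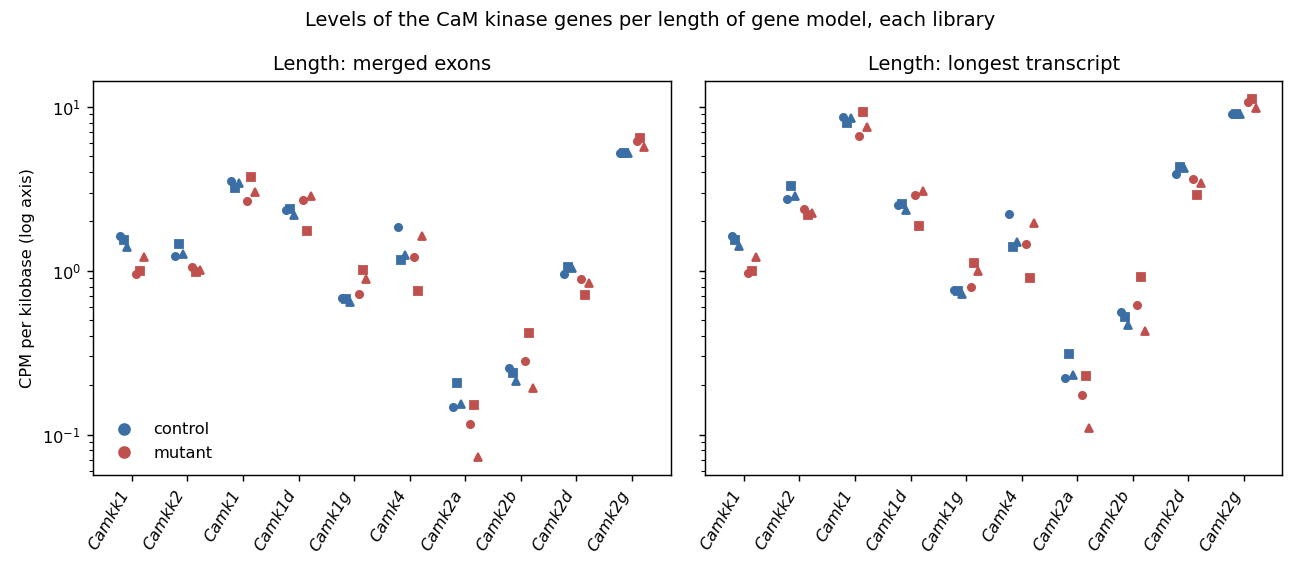
Level of each CaM kinase gene in CPM per kilobase (log axis) in the control (blue) and mutant (red) libraries, using the length of the merged exons (left) or of the longest transcript (right), with circles, squares and triangles for libraries 1, 2 and 3. *Camk2g* was the highest on both scales, at 5.23 and 9.04 CPM per kilobase in the controls, and *Camk2d* moved up from 1.02 to 4.14 CPM per kilobase with the shorter length.

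Summed over the 10 genes, the level was 17.3 ± 0.499 CPM per kilobase of merged exons in the controls and 17.1 ± 0.328 in the mutants (SD, n = 3 each), a difference smaller than the spread. On other scales the sum was lower in the mutants, at 31.8 ± 0.486 and 30.9 ± 0.694 CPM per kilobase of the longest transcript, with overlap, and at 85.4 ± 1.17 and 82.2 ± 1.69 CPM per kilobase of coding length, without overlap. Without division by length the 10 genes summed to between 121.8 and 125.1 CPM in the controls and between 117.3 and 120.3 CPM in the mutants. The kinase kinases summed to 2.85, 3.01 and 2.67 CPM per kilobase in the controls and to 2.02, 1.97 and 2.21 in the mutants, so that the groups did not overlap. The CaMKI genes summed to 6.37 ± 0.155 and 6.46 ± 0.341 CPM per kilobase and overlapped. The CaMKII genes summed to 6.59, 6.72 and 6.65 CPM per kilobase in the controls and to 7.46, 7.75 and 6.79 in the mutants, higher in all 3 mutants on this scale. Per kilobase of the longest transcript the CaMKII sums were 13.7, 14.2 and 14.0 in the controls and 15.1, 15.3 and 13.8 in the mutants, and by coding length their means were 35.99 and 36.5, so that the mutant mean was higher on each scale but the groups overlapped on these last scales.

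Within CaMKII, *Camk2g* made up 78.7% ± 0.77 (SD, n = 3) of the summed CPM per kilobase in the controls and 83.3% ± 0.447 in the mutants, and *Camk2d* 15.3% ± 0.589 and 11.2% ± 1.73. Neither pair of groups overlapped. With the longest transcript as the length, the share of *Camk2g* was 64.8% in the controls and 71.8% in the mutants, and with the coding length it was 54.9% and 63.2%. The size of the share thus depended strongly on the length, while the mutant share was higher on all 3 scales. These shares carry no correction for GC content. With the GC offset the log2 fold changes of *Camk2g* and *Camk2d* were 0.15 and 0.03, and with GC and length offsets 0.18 and 0.22, so that with both offsets *Camk2g* did not exceed *Camk2d*. *Camk2a* took 2.55% and 1.52%, and *Camk2b* 3.52% and 3.99%, of the summed CPM per kilobase of merged exons in controls and mutants. Within CaMKI, the share of *Camk1g* was 10.5% in the controls and 13.5% in the mutants without overlap, and those of *Camk1* (53.2% and 48.7%) and *Camk1d* (36.3% and 37.8%) overlapped. Within the kinase kinases the balance overlapped, with *Camkk1* at 53.7% ± 2.99 and 50.9% ± 3.5. These shares describe the libraries and were not tested.

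A single library, mutant 2, stood out among the 10 genes. It was the highest of the 6 libraries for *Camk1*, *Camk1g*, *Camk2b* and *Camk2g* and the lowest for *Camkk2*, *Camk1d*, *Camk4* and *Camk2d*, which is 8 of the 10 genes, and it was the highest or lowest library for 56.8% of all genes tested. The coefficient of variation was larger in the mutants than in the controls for 9 of the 10 genes, for example 24.7% against 4.53% for *Camk1d* and 37.9% against 9.12% for *Camk2b*, and *Camkk2* was the exception at 3.8% against 9.4%. For what share of all genes this held was not determined, so it is not a trait shown to be particular to the CaM kinases. Mutant library 2 also had the least *Col1a1*, the main collagen gene of odontoblasts and bone, at 9883 CPM, whereas the other mutants were at 28300 and 13010 CPM and the controls between 11080 and 37130 CPM. *S100a8* and *S100a9*, which are markers of neutrophils, were higher in all mutants than in any control (adjusted p = 0.0126 and 0.0229 in edgeR), and highest in this library, at 70.2 and 61.2 CPM. Of 7 red blood cell markers, 2 fell (28.6% called), *Hba-a1* and *Alas2* (adjusted p = 0.0161 and 0.0288 in edgeR). The 7 summed to between 784 and 1331 CPM in the controls, to 942 CPM in mutant library 2 and to 245 and 324 CPM in the other mutants. In mutant library 2 the 14 leukocyte markers summed to 239 CPM, which includes the 70.2 and 61.2 CPM of *S100a8* and *S100a9*. The sums were 144 and 107 CPM in the other mutants and between 97.7 and 105 CPM in the controls. Of 12 leukocyte markers tested, 3 were higher, *S100a8*, *S100a9* and *Cd3g* (adjusted p = 0.0312 in edgeR). *Adgre1* was lower (log2 fold change -0.61, adjusted p = 0.0476 in edgeR). Of these 12, 33.3% were called, against 20.2% of all genes. The part of these differences in the levels of the CaM kinase genes was not tested.

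Of the genes that encode calmodulin itself, *Calm3* was at 144, 145 and 145 CPM in the controls and at 127, 134 and 130 CPM in the mutants, lower in every mutant, with a log2 fold change of -0.15 (adjusted p = 0.245 in edgeR). *Calm2* overlapped, at 184, 170 and 174 CPM and at 168, 154 and 193 CPM (log2 fold change -0.04, adjusted p = 0.838 in edgeR). Neither passed the threshold in this fit. With the GC offset *Calm3* did, at -0.36 (adjusted p = 0.03 in edgeR), and with GC and length offsets it was at -0.41 (adjusted p = 0.0179).

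Among 6 inhibitors, phosphatases and calmodulin-binding regulators, 1 fell and none rose (16.7% called, against 20.2% of all genes). Their median log2 fold change was -0.23. The gene that fell was *Ppm1e*, which encodes a phosphatase that dephosphorylates CaM kinases. It was at 24.4, 39.5 and 34.1 CPM in the controls and at 16.5, 12.5 and 18.1 CPM in the mutants. The groups did not overlap, although the controls themselves varied widely, and the log2 fold change was -1.06 ± 0.20 (SE, n = 3 and 3, adjusted p = 0.012 in edgeR). Without control library 2 or control library 3 the adjusted p was 0.051 and 0.0537. *Ppm1f*, its close relative, was at 39.0 ± 2.13 CPM in the controls and 36.6 ± 1.73 CPM in the mutants (SD, n = 3 each, log2 fold change -0.09, adjusted p = 0.47 in edgeR). The CaMKII inhibitor *Camk2n1* was at 89.8, 117 and 113 CPM and at 98.6, 96.8 and 89.9 CPM, overlapping (log2 fold change -0.16, adjusted p = 0.342 in edgeR), and *Camk2n2*, a second inhibitor, was near 1 CPM (log2 fold change -0.58, adjusted p = 0.163). The calmodulin-binding proteins encoded by *Pcp4* (log2 fold change 0.01, adjusted p = 0.99 in edgeR) and *Nrgn* (log2 fold change -0.29, adjusted p = 0.618) did not pass the threshold.

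Of 11 other calmodulin-regulated or CaM-kinase-like kinases tested out of 12, 1 fell and 1 rose (18.2% called, against 20.2% of all genes). Their median log2 fold change was -0.05. *Mylk*, the myosin light chain kinase of smooth muscle and non-muscle cells, was at 29.4, 44.1 and 42.0 CPM in the controls and at 21.7, 16.9 and 20.4 CPM in the mutants. It fell without overlap, by 0.97 on the log2 scale (SE 0.17, adjusted p = 0.00924 in edgeR), and was called in all 19 alternative analyses. The 10 markers of pericytes and smooth muscle summed to between 478 and 573 CPM in the controls and between 393 and 467 CPM in the mutants. Such sums weigh the markers of highest level most. Of the 10, 1 was called higher and 1 lower, a share near the 20.2% of all genes. Their log2 fold changes were positive for 3 and negative for 7. The part of these markers in the level of *Mylk* was not tested. *Phkg2*, a catalytic subunit of phosphorylase kinase, was at 16.1, 13.8 and 14.0 CPM and at 21.6, 35.2 and 20.2 CPM, and rose with a log2 fold change of 0.81 ± 0.21 (SE, n = 3 and 3, adjusted p = 0.0313 in edgeR). Mutant library 2 was far above the other mutants, and without it the log2 fold change was 0.52 (adjusted p = 0.0204 in edgeR). The call ended when any control library was left out (adjusted p between 0.0648 and 0.118). *Dapk2* and *Mylk3* had log2 fold changes of -0.52 (adjusted p = 0.0723 in edgeR) and -0.41 (adjusted p = 0.154).

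The list of nuclear targets held transcription factors, coactivators and histone deacetylases placed downstream of CaM kinases. Whether each is phosphorylated by a CaM kinase was not examined. Of 15 tested out of 16, 5 were called (33.3%, against 20.2% of all genes), 2 higher and 3 lower. Their median log2 fold change was 0.04 (0.01 over all genes). The difference between the shares called was not tested. *Crtc2*, a coactivator of CREB, was at 24.1, 23.8 and 25.6 CPM in the controls and at 39.4, 53.1 and 36.2 CPM in the mutants. It rose in every mutant, with a log2 fold change of 0.81 ± 0.15 (SE, n = 3 and 3, adjusted p = 0.0102 in edgeR, and 0.0548 without control library 2). *Hdac5*, a class IIa histone deacetylase that leaves the nucleus when phosphorylated, was at 84.8, 77.0 and 81.3 CPM and at 112, 116 and 108 CPM. Its log2 fold change was 0.47 ± 0.09 (SE, adjusted p = 0.012 in edgeR), with clearly separate groups. With a GC offset it was 0.26 (adjusted p = 0.0581), and without control library 2 or 3 the adjusted p was 0.0903 and 0.081.

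*Creb1*, which encodes CREB, was lower in the mutants, at 58.7, 70.9 and 70.2 CPM in the controls and at 36.2, 32.8 and 48.6 CPM in the mutants (log2 fold change -0.76 ± 0.16, SE, n = 3 and 3, adjusted p = 0.0155 in edgeR). *Mef2c*, a transcription factor held back by class IIa histone deacetylases, was at 25.1, 41.6 and 37.7 CPM and at 21.9, 17.4 and 22.5 CPM (log2 fold change -0.75 ± 0.19, adjusted p = 0.0305 in edgeR). Both genes were lower in all 3 mutants than in any control. *Creb1* and *Mef2c* are poor in G and C, at 39.3% and 38.6% of their exons, and the GC offset reduced their log2 fold changes to -0.40 (adjusted p = 0.051 in edgeR) and -0.36 (adjusted p = 0.147). *Creb1* was not called without control library 2, control library 3 or mutant library 1 (adjusted p between 0.0524 and 0.07), nor was *Mef2c*, which was also not called without mutant library 2 (adjusted p between 0.0608 and 0.117). The last call was *Hdac9*, another class IIa histone deacetylase, named after its values were seen, at 1.72, 2.26 and 2.07 CPM in the controls and 1.35, 1.09 and 1.24 CPM in the mutants (log2 fold change -0.72 ± 0.21, SE, adjusted p = 0.0467 in edgeR). It rested on 63 to 132 counts per library. Unlike the other calls of this list, it was not followed through the alternative analyses, so its stability is not known.

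AMPK, the heterotrimeric energy sensor that CaMKK2 activates, was represented by its subunits and by *Stk11*, which encodes the other main AMPK kinase. Of these 8 genes, 1 fell and none rose (12.5% called, against 20.2% of all genes), with a median log2 fold change of 0.16. *Prkaa2*, a catalytic subunit, was at 21.5, 21.6 and 20.7 CPM in the controls and at 14.2, 11.9 and 17.9 CPM in the mutants, separate in all libraries. *Prkaa2* thus fell with a log2 fold change of -0.53 ± 0.15 (SE, n = 3 and 3, adjusted p = 0.0415 in edgeR). With the GC offset it was -0.23 (adjusted p = 0.214), and of the 6 analyses without a library only that without mutant library 3 kept the call (adjusted p between 0.0543 and 0.134 in the other 5). For *Prkaa1*, the other catalytic subunit, the log2 fold change was -0.33 (adjusted p = 0.159 in edgeR). *Prkab1* and *Prkag3*, a β and a γ subunit, had log2 fold changes of 0.33 (adjusted p = 0.0758 in edgeR) and 0.96 (adjusted p = 0.108), the latter at under 1 CPM in every library.

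Of 13 genes for the G proteins, phospholipases C, protein kinases C and TAK1-NLK steps of Wnt/calcium signaling, 2 fell and none rose (15.4% called, below the 20.2% of all genes). Their median log2 fold change was -0.26, with 11 of 13 negative, where 49.3% of all genes were negative, and the list as a whole was not tested. *Nlk*, a kinase that acts on TCF factors, was at 28.2, 27.8 and 26.5 CPM in the controls and at 19.3, 19.7 and 22.8 CPM in the mutants. The groups were separate, with a log2 fold change of -0.42 ± 0.10 (SE, n = 3 and 3, adjusted p = 0.0263 in edgeR). *Prkca*, which encodes protein kinase Cα, was at 26.1, 34.4 and 32.7 CPM and at 23.3, 15.9 and 22.8 CPM. It was lower in all mutants (log2 fold change -0.59 ± 0.17, SE, adjusted p = 0.0445 in edgeR). Both calls ended with the GC offset, at log2 fold changes of -0.23 (adjusted p = 0.135) for *Nlk* and -0.48 (adjusted p = 0.0604) for *Prkca*. *Nlk* was not called without any of the controls or without mutant library 1 (adjusted p between 0.0641 and 0.112 in edgeR), and *Prkca* not without control library 2 or 3 or mutant library 1 or 2 (adjusted p between 0.0558 and 0.158). The log2 fold change of *Tab1*, a TAK1-binding protein, was 0.57 (adjusted p = 0.0504 in edgeR), and that of *Prkcb*, which encodes protein kinase Cβ, was -0.40 (adjusted p = 0.0875).

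**Figure D4:**
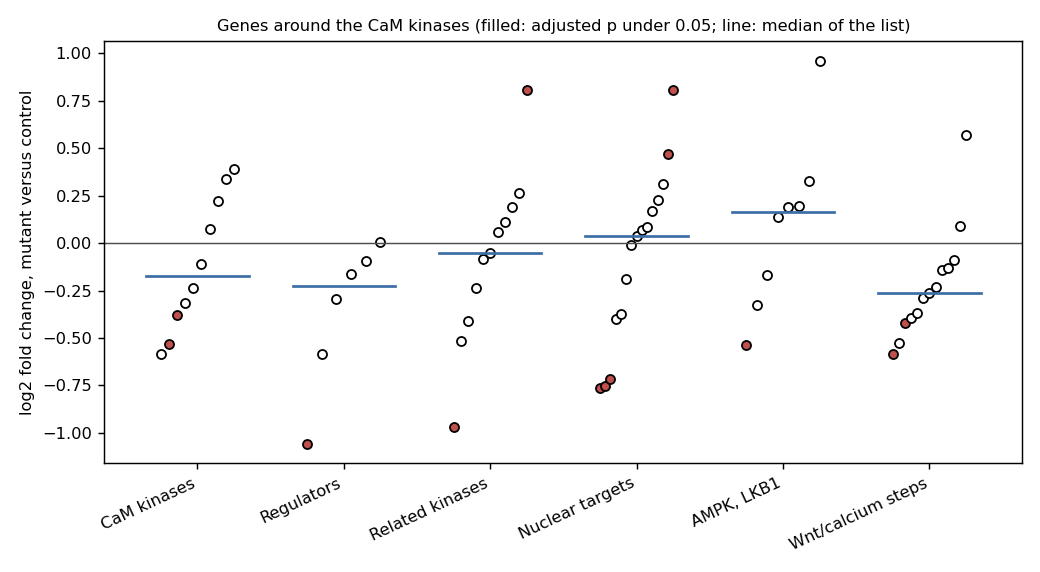
Log2 fold change, mutant versus control (vertical axis), of the CaM kinase genes and of the genes in 5 lists around them, 1 point per gene, filled where the adjusted p is under 0.05, with blue lines at the median of each list. The CaM kinases have 2 filled points, both below 0, and the nuclear targets have 5, of which 2 lie above 0.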

How the data were processed

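RNA-seq libraries of mandibular first molar pulp were grouped as 3 control and 3 mutant libraries by the genotype in the labels. The titles carry letter codes that are not explained, and that of control library 1 differs from those of the other controls. The authors deposited estimated counts per gene from single-end reads of 75 cycles counted over exons of mm10. The methods name TopHat 2, while the submitters' processing notes list STAR 2.6.1d and Partek. The counting program, annotation and use of strand are not given in the sources used here. A normalized signal per gene was deposited as well. Each signal equals the estimated count, plus 1, times a factor for the library, with no division by length, and 5445 genes with at most 10 counts are left out. It was used in 2 alternatives only. In the tables, 6 columns of other samples were not used.

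The design assumed whole counts, and the estimated counts, of which 47.8% were whole, were rounded. Libraries held 56134770 to 62628940 counts. Within a group, no pair of libraries agreed within counting noise. Genes kept by filterByExpr were tested with edgeR 4.0.16 in R 4.3.3 (TMM scaling, quasi-likelihood test, Benjamini-Hochberg adjustment over 19330 genes, threshold 0.05, no block). Levels are TMM-scaled CPM. Log2 fold changes are mutant versus control. The script was tested on simulated data. Alternatives, also with limma 3.58.1 and DESeq2 1.42.0, were other tests, scalings and filters, unrounded counts, the replicate number as a block, GC and length offsets, and leaving out each library. Coordinates, lengths and GC content are from GENCODE release M21 (mm10), which matched 27458 of 27506 genes. Promoters are from a RefSeq table (GRCm38.p6), which matched 7 of the 10 genes.

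The members and gene lists were chosen with earlier results of these data known. Named genes are all members, *Ror2*, calmodulin genes and regulators, and up to 4 genes with the smallest p of each other pathway list. In marker lists, those below 1 CPM and of highest level were eligible. *Hdac9*, *Col1a1*, *S100a8*, *S100a9*, *Cd3g*, *Adgre1*, *Hba-a1*, *Alas2* and the overlapping genes *Ogg1* and *2310026I22Rik* were named after their values were seen. A result that these rules would include is not reported here.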

Additional observations from a re-analysis of the deposited data

How the results depend on the processing

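The number of genes called was 3906, and it was 6341 with limma voom and 2013 with the replicate number as a block. Without a library it ranged from 872 (control library 3 left out) to 5001 (mutant library 3 left out), and was 910 without control library 2 and 2404 without mutant library 1. Of the CaM kinase genes, 2 were called, 0 with scaling by library size alone, without a filter on low counts, in limma-trend on the normalized table at both pseudocounts and with the replicate block, 1 with a filter of at least 1 CPM in 3 libraries, and 0 to 1 without a library. The cause was not tested. The 3 same-numbered pairs of libraries had correlations of -0.1, -0.0795 and -0.00375, and no library correlated best with its own number. No pairing by number was thus seen, but deviations within groups of 3 libraries cannot exclude a pairing. The methods speak of 3 pairs of samples without saying how they were paired. With the replicate block *Ror2* was at -0.43 (edgeR adjusted p = 0.0582), *Camkk1* at -0.54 (adjusted p = 0.116) and *Camkk2* at -0.38 (adjusted p = 0.134). Without a library, *Ror2* ranged from -0.46 (control library 2 left out) to -0.41 (mutant library 3 left out).

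Of 191 values of the members under alternatives, 186 kept their direction. *Camk2d* turned to 0.033 with the GC offset and 0.22 with GC and length offsets, *Camk1d* ranged from -0.059 to 0.28 and *Camk4* from -0.53 to 0.013 without a library. *Calm2* was at 0.20 and 0.12 with these offsets and from -0.13 to 0.045 without a library, *Prkaa1* at 0.0060 with both offsets, and *Nrgn* from -0.84 to 0.0069 without a library. *Pcp4* was at -0.20 with voom, -0.0054 with library size alone, -0.010 without a filter, -0.044 and -0.060 in limma-trend, -0.075 with the block, -0.012 with both offsets, and from -0.34 to 0.26 without a library. The share of *Camk2g* in CaMKII in the controls was 78.7%, 64.8% by longest transcript and 54.9% by coding length. That of *Camk1* in CaMKI moved from 53.2% to 72.4% by longest transcript, and that of *Camkk2* in the kinase kinases from 46.3% to 65.9% and 68.4%, because the lengths differ. Counting error is largest for *Camk2a*, with 32 to 90 counts per library, and its part in the spread between libraries was not tested.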
